A study of Mus musculus with 12 samples.

Results

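The transcripts described here are those of the glucose transporters Slc2a1, Slc2a3, Slc2a6 and Slc2a8, the lactate transporters Slc16a1 and Slc16a3, and Bsg, the partner protein of the lactate transporters. They were found by symbol among the Ensembl identifiers of the read-count table and are 7 of its 46983 genes. All 7 had enough reads to be tested. RNA was sequenced from B cells isolated from mouse bone marrow with magnetic beads and cultured under normal or low oxygen, and each of the 4 groups has 3 libraries. The groups are wild type in normoxia (WT normoxia), wild type in hypoxia (WT hypoxia), HIF-1α-deficient in normoxia (KO normoxia) and HIF-1α-deficient in hypoxia (KO hypoxia). HIF-1α, which is broken down when oxygen is plentiful, is part of the transcription factor HIF-1, and the series asked which genes it controls in these cells. According to the study's methods, the KO mice carry loxP-flanked Hif1a alleles deleted by a Cre in the Mb1 (Cd79a) locus, which is active in B-lineage cells only, so other cells that come through the beads keep the gene. The methods name Cre-negative littermates with the same floxed alleles, or carriers of the Cre alone, as controls, and the labels do not say which of these the WT libraries are. The labels give neither the age of the mice nor whether each library is a mouse of its own, so a p-value here reflects library-to-library spread, which may be technical.

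Glucose enters cells by facilitated diffusion through transporters of the SLC2 (GLUT) family, and lactate leaves them together with a proton through monocarboxylate transporters (MCT) of the SLC16 family. Cells in low oxygen make more of their ATP by glycolysis, which needs glucose uptake and lactate export. Slc2a1 encodes GLUT1, the widely expressed glucose transporter, and is a well known target of HIF-1. Slc2a3 encodes GLUT3, which has a high affinity for glucose, and Slc2a6 and Slc2a8 encode GLUT6 and GLUT8, which sit mainly on membranes inside the cell. Slc16a1 encodes MCT1, which carries lactate and pyruvate in either direction, and Slc16a3 encodes MCT4, the low-affinity exporter of glycolytic cells and another known HIF-1 target. Bsg encodes basigin (CD147), which takes MCT1 and MCT4 to the cell surface.

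The genes lie on 6 chromosomes of the GRCm38 (mm10) build. Slc2a1 is at chr4:119108711-119137983 on the plus strand and Slc2a3 at chr6:122727809-122801640 on the minus strand. Slc2a6, at chr2:27021363-27027998, and Slc2a8, at chr2:32972990-32982083, both lie on the minus strand of chromosome 2. Slc16a1 is at chr3:104638668-104658462, Slc16a3 at chr11:120948480-120960868 and Bsg at chr10:79704491-79711969, all on the plus strand. Slc2a1 shares 105 exon bases with small overlapping genes that together had 104 reads in all libraries, against 21750 for Slc2a1, and the genes that overlap Slc2a3 and Slc16a1 share no exon base with them.

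RefSeq promoter windows of the GRCm38.p6 build, 250 bases before to 50 after a gene's start, were at hand for 5 of the 7 genes. The start is that of RefSeq and can differ from the GENCODE gene start given above, and the whole Slc16a3 window lies inside the GENCODE gene, downstream of its first base. They are shown for Slc16a3 and Slc2a1, the genes with the largest rise in hypoxia, for Slc16a1, which rose in KO only by the test used here, and for Slc2a6, which fell. HIF dimers are known to bind the letters ACGTG or GCGTG, and matches on either strand are in capitals, so that CACGT and CACGC are matches on the opposite strand.
Slc16a3 promoter, chr11:120948817-120949116, plus strand: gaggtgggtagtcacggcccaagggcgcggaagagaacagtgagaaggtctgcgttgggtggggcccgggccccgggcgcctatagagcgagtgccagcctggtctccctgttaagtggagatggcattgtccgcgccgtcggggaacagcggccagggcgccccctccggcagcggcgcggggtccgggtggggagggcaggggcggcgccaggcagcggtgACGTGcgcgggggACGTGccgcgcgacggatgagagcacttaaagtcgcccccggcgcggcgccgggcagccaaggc
Slc2a1 promoter, chr4:119108495-119108794, plus strand: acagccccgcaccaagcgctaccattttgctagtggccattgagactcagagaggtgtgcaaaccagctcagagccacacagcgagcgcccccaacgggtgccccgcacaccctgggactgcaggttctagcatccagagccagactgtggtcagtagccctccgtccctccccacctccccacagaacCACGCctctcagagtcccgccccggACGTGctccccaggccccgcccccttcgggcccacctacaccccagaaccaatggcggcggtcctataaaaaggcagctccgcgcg
Slc16a1 promoter, chr3:104638414-104638713, plus strand: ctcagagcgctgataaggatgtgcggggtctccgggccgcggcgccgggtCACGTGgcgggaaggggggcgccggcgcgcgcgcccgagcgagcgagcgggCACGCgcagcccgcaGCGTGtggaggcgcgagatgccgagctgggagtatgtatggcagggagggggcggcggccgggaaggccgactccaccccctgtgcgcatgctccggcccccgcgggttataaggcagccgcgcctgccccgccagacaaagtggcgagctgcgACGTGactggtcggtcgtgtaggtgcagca
Slc2a6 promoter, chr2:27027949-27028248, minus strand: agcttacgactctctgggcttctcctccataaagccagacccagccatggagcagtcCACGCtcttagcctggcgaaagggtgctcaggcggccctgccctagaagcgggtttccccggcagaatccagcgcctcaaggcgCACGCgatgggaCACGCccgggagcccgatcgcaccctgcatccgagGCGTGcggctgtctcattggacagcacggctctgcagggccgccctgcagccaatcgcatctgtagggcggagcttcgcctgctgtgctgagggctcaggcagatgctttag
The Slc16a3 window held ACGTG at 2 sites, 27 and 14 bases before the start, and no GCGTG. The Slc2a1 window held 1 ACGTG 36 bases before the start and 1 GCGTG on the opposite strand, 61 bases before it. The Slc16a1 window held ACGTG at 2 sites that share no base, the palindrome CACGTG and a match 20 bases after the start, and GCGTG at 2 sites. The Slc2a6 window had no ACGTG and 4 matches to GCGTG, and that of Slc2a8, not printed, had no ACGTG and 1 GCGTG. Of 32851 promoter windows of this length, 19.6% held ACGTG, 32.4% held GCGTG, 43.8% held either, and 2.69% held ACGTG at 2 or more sites that share no base. A match is a description of the letters and not a binding site.

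Levels are given as CPM, read counts scaled to the depth of each library by TMM, and differences as log2 fold changes with their standard error (SE) from an edgeR fit of all 12 libraries. A gene is called where the adjusted p is under 0.05 after Benjamini-Hochberg correction over the 17506 genes tested. Library totals ran from 27629175 to 36880082 reads, and the members had 137 to 11241 reads each in a library. All 12 B-lineage markers were detected in each group, at a summed 8105 to 10216 CPM per library. The cells were not pure, since summed neutrophil markers reached 1227 to 6657 CPM and summed monocyte and macrophage markers 838 to 2185 CPM, with none of either list at 0 in a whole group. WT libraries 1 and 2 of both conditions had reads of Y-linked genes (310 to 396 CPM) and 18 to 21 reads of Xist, while WT library 3 and all KO libraries had 42109 to 77454 reads of Xist. KO hypoxia library 1 had both, with 46.0 CPM of Y-linked genes. Cd79a, whose locus carries the Cre, had 1460 to 1913 CPM in the WT libraries and 776 to 881 CPM in the KO libraries. Hif1a was at 84.2 to 110 CPM in WT and 109 to 136 CPM in KO, and a count over the whole gene does not test the deletion of a part of it.

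**Figure D1:**
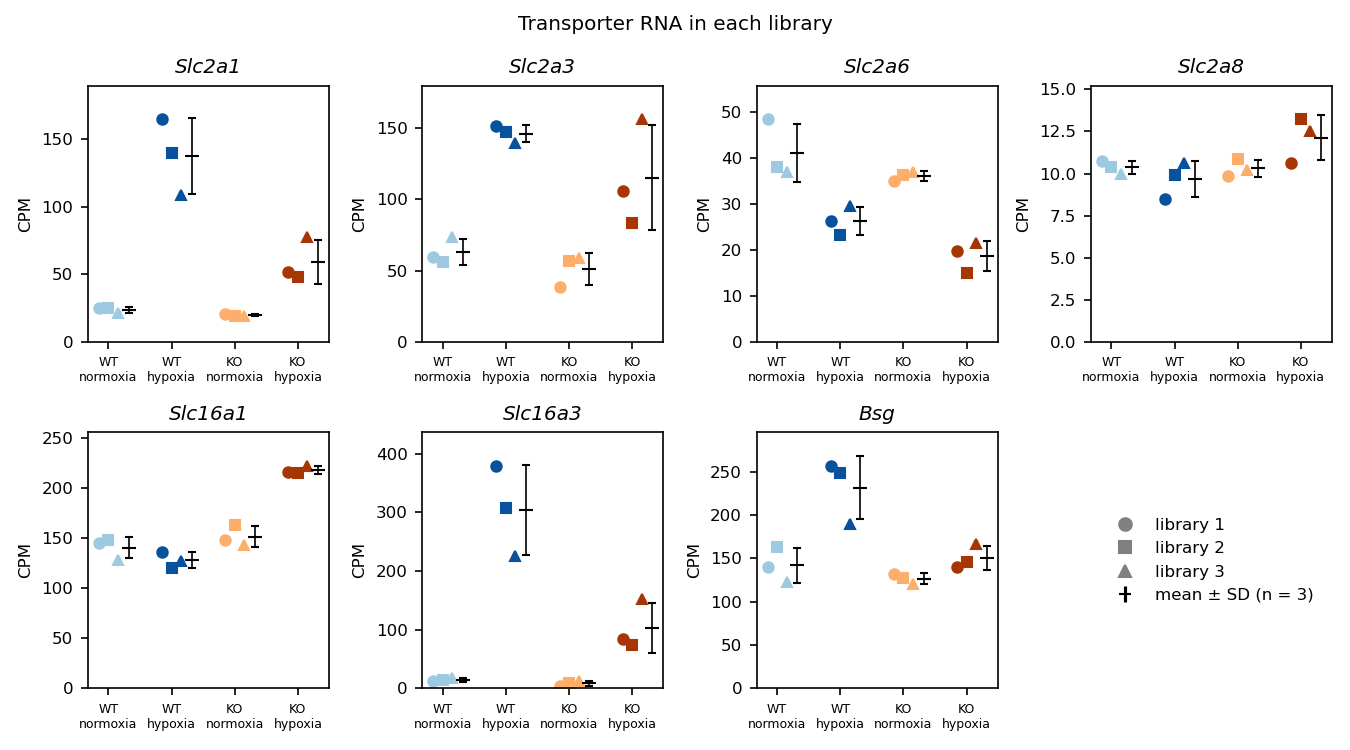
Levels in CPM (linear axes from 0) of the 7 genes in each of the 12 libraries, by group. Symbols are libraries 1, 2 and 3 of a group, and the black bar is the mean ± SD (n = 3). Slc16a3 and Slc2a1 are highest in all 3 WT hypoxia libraries, and Slc16a1 is highest in all 3 KO hypoxia libraries.

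Hypoxia raised the transcripts of 4 of the 7 genes in WT cells, Slc16a3, Slc2a1, Slc2a3 and Bsg, and lowered that of Slc2a6, where 27.8% of all tested genes were called (11.4% higher and 16.3% lower). In KO cells 4 rose too, Slc16a3, Slc2a1, Slc2a3 and Slc16a1, and Slc2a6 fell, where 30.3% of all tested genes were called (14.5% higher and 15.7% lower). The median change of the 7 genes was 0.71 in WT and 0.53 in KO on the log2 scale, beside 0.01 and 0.04 for all genes tested. Under hypoxia 4 of the 7 were lower in KO than in WT and 1 was higher, where 9.84% of all genes were called, 5.12% lower and 4.72% higher. Under normoxia no member was called, where 0.0228% of all genes were, 0.0171% lower and 0.00571% higher, and at an unadjusted p under 0.05 the count of members was 0 too, as it was with DESeq2. Beside these changes, 2 of 11 neutrophil markers rose in WT and 3 of 11 in KO with none falling, and of 12 monocyte and macrophage markers 3 rose and 2 fell in WT and 4 rose and 3 fell in KO. Under hypoxia 4 of the 12 monocyte and macrophage markers and none of the 11 neutrophil markers were called lower in KO. The median log2 fold change there was -0.68 for the monocyte and macrophage list and -0.64 for the neutrophil list, beside -0.03 for all genes. Under normoxia the medians of KO against WT were -0.77 and -0.82, beside -0.03, with no marker of either list called. Summed neutrophil markers had 2930 to 4231 CPM in KO hypoxia and 3704 to 6657 CPM in WT hypoxia. The part of these myeloid markers was not tested beyond the fits with both levels as covariates. Of 12 B-lineage markers 1 rose and 3 fell with hypoxia in WT and 4 fell in KO, and 4 were lower in KO than in WT under hypoxia and 1 under normoxia. Of 9 T and NK cell markers 2 fell in WT and 3 in KO with hypoxia, and 1 was higher in KO under hypoxia. Of 11 erythroid markers tested, 1 rose in WT, 2 fell in KO and 1 was lower in KO under hypoxia, and their summed level in KO normoxia ran from 561 to 3154 CPM, against 547 to 736 CPM in WT normoxia. The part of these lists in the transporter results was not tested. In these bulk samples, fewer cells of a type and less RNA per cell cannot be told apart. The 7 genes and the lists around them were chosen with earlier results of these data known, so the counts describe these genes and say nothing of glucose and lactate transport as a class.

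Slc2a1, the widely expressed glucose importer, had 24.8, 25.1 and 21.0 CPM in WT normoxia and 164, 139 and 108 CPM in WT hypoxia. In KO it had 20.4, 19.2 and 19.3 CPM in normoxia and 51.3, 48.0 and 77.4 CPM in hypoxia. Every hypoxia library lay above every normoxia library, and the lowest WT hypoxia library, number 3, lay above the highest KO hypoxia library, also number 3. The rise was 5.81-fold in WT (log2 fold change 2.54 ± 0.19 SE, adjusted p = 1.69e-06) and 1.58 ± 0.18 on the log2 scale in KO (adjusted p = 4.97e-05). Under hypoxia, KO was 2.33-fold lower than WT (-1.22 ± 0.18, adjusted p = 0.00183), while under normoxia the difference of -0.27 ± 0.18 did not pass the test (adjusted p = 0.672). The KO response minus the WT response was -0.96 ± 0.25, and this difference of responses was not called (adjusted p = 0.162). It was called with DESeq2 (-0.98, adjusted p = 0.0117), with the replicate number as a block (-0.97, adjusted p = 0.0486), without WT hypoxia library 3 (-1.07, adjusted p = 0.0497) and without KO hypoxia library 3 (-1.17, adjusted p = 0.0265), and its adjusted p over all alternatives ran from 0.0117 to 1.00.

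Slc2a3, the high-affinity glucose transporter, had 59.6, 56.2 and 73.8 CPM in WT normoxia and 152, 147 and 140 CPM in WT hypoxia. The KO libraries had 38.6, 56.9 and 58.6 CPM in normoxia and 106, 83.8 and 156 CPM in hypoxia. Normoxia and hypoxia did not overlap in either genotype, but the KO hypoxia libraries spanned the WT hypoxia range, with KO library 3 above all of them. Slc2a3 rose 2.31-fold in WT (1.21 ± 0.22, adjusted p = 0.00186) and 2.25-fold in KO (1.17 ± 0.22, adjusted p = 0.00221). The difference of the responses was -0.04 ± 0.30 with a 95% interval of -0.71 to 0.63, and KO against WT under hypoxia was -0.34 ± 0.21 (adjusted p = 0.354).

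Slc2a6, a transporter of internal membranes known from mouse macrophages, went the other way. It had 48.5, 38.1 and 36.9 CPM in WT normoxia, 26.3, 23.4 and 29.5 CPM in WT hypoxia, 35.0, 36.4 and 37.0 CPM in KO normoxia and 19.7, 15.1 and 21.5 CPM in KO hypoxia. No hypoxia library reached the lowest normoxia library of either genotype. The fall was 1.56-fold in WT (-0.64 ± 0.14, adjusted p = 0.00388) and 1.93-fold in KO (-0.95 ± 0.14, adjusted p = 2.36e-04). KO hypoxia was lower than WT hypoxia (-0.49 ± 0.14, adjusted p = 0.0417), a call that was lost without any 1 of WT hypoxia libraries 1, 2 and 3 or of KO hypoxia libraries 1 and 2 (-0.57 to -0.33, adjusted p = 0.0550 to 0.156). The summed monocyte and macrophage markers had 838 to 1541 CPM in KO hypoxia and 1474 to 2185 CPM in WT hypoxia, and with the monocyte and neutrophil levels as covariates the difference was -0.28 (adjusted p = 0.403).

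Slc2a8, which like Slc2a6 works inside the cell, had the lowest mean per kilobase of exon of the 4 glucose transporters in every group, 3.01 to 3.78 CPM per kilobase. Its level stayed between 8.50 and 13.2 CPM over all 12 libraries. It had 10.4 ± 0.381 CPM (SD, n = 3) in WT normoxia, 9.67 ± 1.08 CPM in WT hypoxia, 10.3 ± 0.497 CPM in KO normoxia and 12.1 ± 1.34 CPM in KO hypoxia. Adjacent groups overlapped, no comparison was called, and the interval of the hypoxia response was -0.36 to 0.16 in WT and -0.03 to 0.49 in KO.

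Slc16a3, the lactate exporter MCT4, changed the most. In WT it had 11.9, 13.5 and 17.2 CPM in normoxia and 379, 308 and 225 CPM in hypoxia, and in KO it had 3.82, 9.72 and 12.5 CPM in normoxia and 84.1, 73.5 and 152 CPM in hypoxia. Every hypoxia library was far above every normoxia library, and the WT and KO hypoxia libraries did not overlap. The rise was 21.4-fold in WT (4.42 ± 0.46, adjusted p = 1.24e-04) and 3.58 ± 0.45 on the log2 scale in KO (adjusted p = 3.64e-04), and 0.154% of all genes had a larger change in either direction in WT and 0.594% in KO. Under hypoxia KO was 2.95-fold lower than WT (-1.56 ± 0.40, adjusted p = 0.0417). That call was lost with no filter on low counts (-1.58, adjusted p = 0.0936), with only the compared groups in the fit (-1.54, adjusted p = 0.0737), and without any 1 of WT hypoxia libraries 1 and 2 or KO hypoxia libraries 1 and 2 (-1.55 to -1.34, adjusted p = 0.116 to 0.152), and over all alternatives the adjusted p ran from 0.00365 to 0.697. The difference of the responses was -0.83 ± 0.59 (adjusted p = 0.715). The summed neutrophil markers were 1227, 2491 and 4089 CPM in KO normoxia libraries 1, 2 and 3, in the order of Slc16a3, and 3704, 6148 and 6657 CPM in WT hypoxia, in the opposite order. In WT normoxia and KO hypoxia the orders were alike. With the monocyte and neutrophil levels as covariates, KO against WT was -0.96 under hypoxia (adjusted p = 0.277) and 0.083 under normoxia, where it had been -0.72.

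Slc16a1, the transporter MCT1, behaved unlike Slc16a3. In WT it had 145, 148 and 128 CPM in normoxia and 136, 120 and 127 CPM in hypoxia, ranges that overlap. In KO it had 148, 163 and 143 CPM in normoxia and 215, 215 and 222 CPM in hypoxia, so that all 3 KO hypoxia libraries lay above the other 9 libraries. The WT response of -0.14 ± 0.08 was not called (adjusted p = 0.212, 95% interval -0.30 to 0.03), while Slc16a1 rose 1.44-fold in KO (0.53 ± 0.08, adjusted p = 2.33e-04). KO hypoxia was 1.70-fold above WT hypoxia (0.77 ± 0.08, adjusted p = 1.32e-04), and this call held in all 16 alternatives (0.73 to 0.84). The difference of the responses, 0.66 ± 0.11, was called (adjusted p = 0.0192), where 0.417% of all genes were called, 0.103% higher and 0.314% lower. The called difference of responses was lost without any 1 of WT normoxia library 1, WT hypoxia library 2, KO normoxia library 1 and KO hypoxia library 1 (0.62 to 0.69, adjusted p = 0.0558 to 0.0793). It was 0.55 in the fit limited to libraries that have Xist and no Y-linked reads, which leaves 1 WT library per condition.

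Bsg, the chaperone that both transporters share, had 140, 163 and 123 CPM in WT normoxia and 257, 248 and 190 CPM in WT hypoxia. The KO libraries had 133, 127 and 120 CPM in normoxia and 141, 145 and 166 CPM in hypoxia. Hypoxia lay above normoxia without overlap in both genotypes, and each WT hypoxia library above each KO hypoxia library. Bsg rose 1.63-fold in WT (0.71 ± 0.12, adjusted p = 8.33e-04). The KO difference of 0.25 ± 0.12 was not called (adjusted p = 0.138), although it was with only the KO groups in the fit (0.24, adjusted p = 0.0318) and with the replicate block (0.25, adjusted p = 0.0350), and the adjusted p over its alternatives ran from 0.0280 to 0.321. KO hypoxia was 1.54-fold lower than WT hypoxia (-0.62 ± 0.12, adjusted p = 0.00812), a call lost without WT hypoxia library 1 (-0.52, adjusted p = 0.0512). The difference of the responses, -0.46 ± 0.17, was not called (adjusted p = 0.360).

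**Figure D2:**
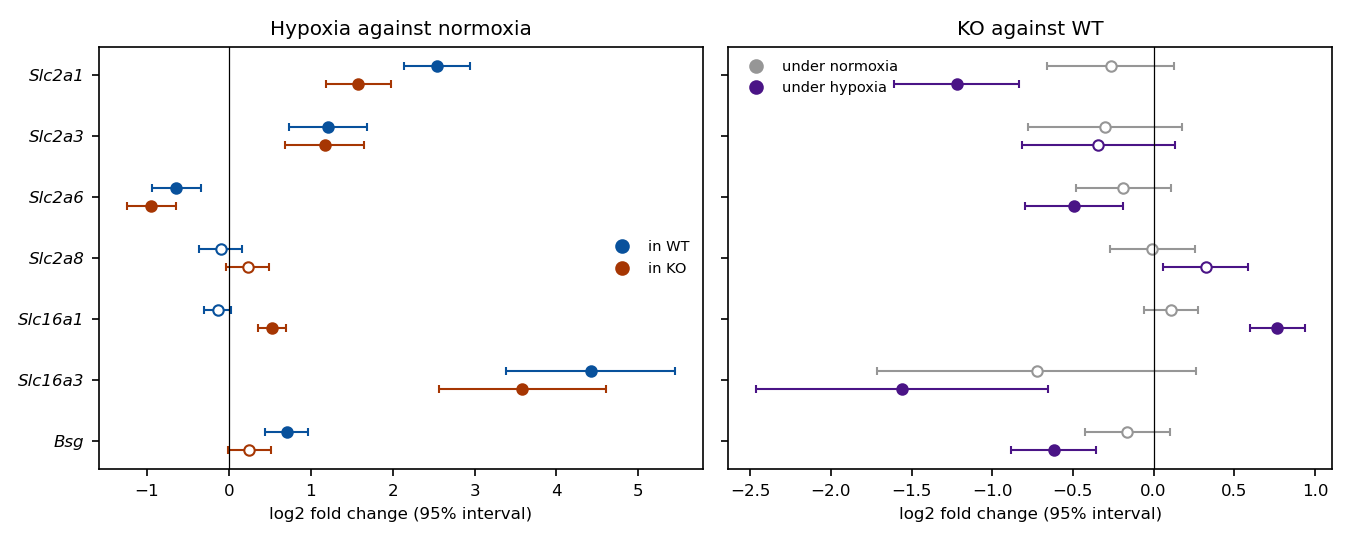
Log2 fold changes of the 7 genes with their 95% intervals, hypoxia against normoxia in WT and KO (left) and KO against WT under normoxia and hypoxia (right), from the edgeR fit of 12 libraries. Filled points passed an adjusted p of 0.05 over all genes and open points did not. Slc16a1 is the gene that was higher in KO under hypoxia by the test, at 0.77, and Slc2a1, Slc2a6, Slc16a3 and Bsg were lower.

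Because KO hypoxia and WT normoxia differ in both genotype and oxygen, they show how far a KO cell in hypoxia stood from an untreated WT cell. KO hypoxia was above WT normoxia in Slc16a3 (2.86 ± 0.43), Slc2a1 (1.32 ± 0.18), Slc2a3 (0.87 ± 0.22) and Slc16a1 (0.63 ± 0.08) and below it in Slc2a6 (-1.13 ± 0.14), where 34.3% of all genes were called, 14.5% higher and 19.8% lower. The Slc2a3 call was lost without WT normoxia library 2 (0.80, adjusted p = 0.0599), with no filter on low counts (0.85, adjusted p = 0.0517) and with the Y-linked covariate (0.79, adjusted p = 0.0796). In the fit limited to libraries that have Xist and no Y-linked reads, the calls of Slc2a3 (0.70) and Slc16a3 (2.71) were lost. Bsg did not pass the test there (0.09 ± 0.12, 95% interval -0.18 to 0.35). WT hypoxia against KO normoxia, where 32.2% of all genes were called (16.5% higher and 15.7% lower), gave 5.14 ± 0.48 for Slc16a3, 2.80 ± 0.19 for Slc2a1, 1.51 ± 0.22 for Slc2a3 and 0.87 ± 0.12 for Bsg. Slc2a6 (-0.45 ± 0.14) and Slc16a1 (-0.24 ± 0.08) were lower there. The Slc2a6 call was lost without any 1 of WT hypoxia libraries 1 and 2 and KO normoxia library 2 (-0.45 to -0.38), and with the Y-linked covariate (-0.45, adjusted p = 0.0678). The Slc16a1 call was lost without any 1 of WT hypoxia libraries 2 and 3 and KO normoxia libraries 1 and 2 (-0.27 to -0.19). It was lost too with the monocyte and neutrophil levels as covariates (-0.18, adjusted p = 0.409). In the fit limited to libraries that have Xist and no Y-linked reads, the calls of Slc2a3 (1.44), Slc2a6 (-0.30) and Slc16a1 (-0.26) were lost. These comparisons share libraries with those above and are given as values beside them.

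The KO and WT libraries also differed in the sex-linked reads and in the markers of other cells, and the number of mice behind them is not known. The single WT hypoxia library with Xist and without Y-linked reads, library 3, had the lowest Slc2a1, Slc16a3 and Bsg of its group, at 108, 225 and 190 CPM, and all KO hypoxia libraries were below it, at up to 77.4, 152 and 166 CPM. A fit limited to libraries that have Xist and no Y-linked reads leaves 1 WT library per condition and also drops KO hypoxia library 1. The WT libraries are there taken to vary like the other groups, since 1 library has no spread, so only values are given. In that fit KO against WT under hypoxia was -0.79 for Slc2a1, -0.99 for Slc16a3, -0.28 for Bsg and 0.79 for Slc16a1. With a covariate for the Y-linked reads, Slc2a1 and Slc16a1 were called, and Bsg (-0.37, adjusted p = 0.0549), Slc16a3 (-1.48, adjusted p = 0.179) and Slc2a6 (-0.50, adjusted p = 0.117) were not. With the monocyte and neutrophil levels as covariates Slc2a1 (-1.01) and Slc16a1 (0.75) were called, and Slc16a3 (-0.96, adjusted p = 0.277), Bsg (-0.61, adjusted p = 0.0953), Slc2a6 (-0.28) and Slc2a3 (0.02) were not. The part of the sex-linked difference in the genotype results was not tested beyond these fits.

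**Figure D3:**
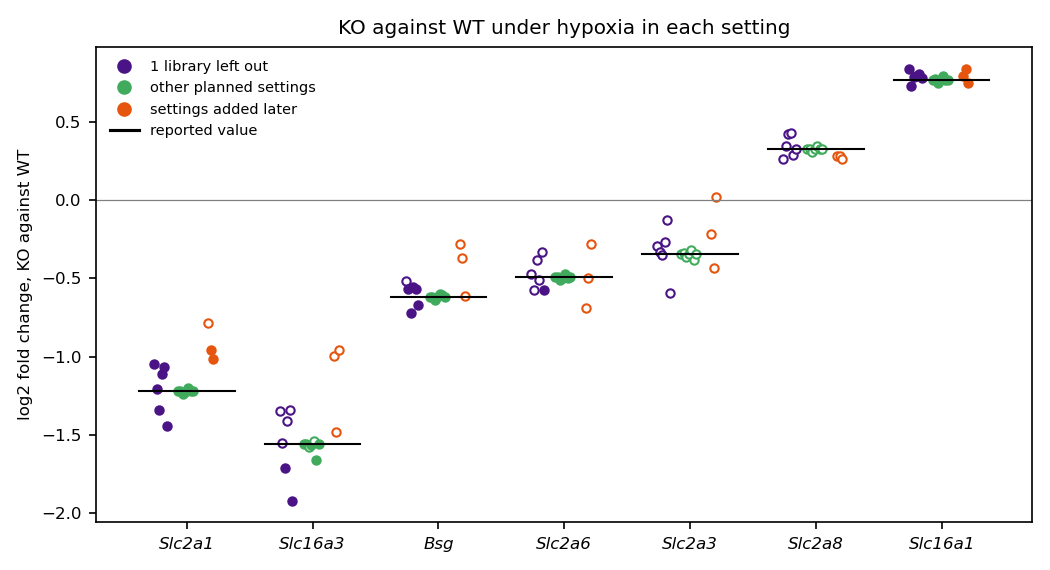
Log2 fold change of KO against WT under hypoxia for each of the 7 genes under each alternative setting, with the reported value as a black line. Filled points passed an adjusted p of 0.05 and open points did not. Slc16a1 is filled throughout, Slc2a1 is open in 1 setting only, the fit limited to libraries that have Xist and no Y-linked reads, and all settings of Slc16a3, Bsg and Slc2a6 lie below 0.

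Levels of different genes can be compared only per length of exon. On the scale of CPM per kilobase, the 4 glucose transporters summed to 31.5 ± 1.97 in WT normoxia, 70.6 ± 7.99 in WT hypoxia, 27.2 ± 1.76 in KO normoxia and 42.4 ± 10.5 in KO hypoxia (SD, n = 3). The length is that of all annotated exons of a gene merged, 7245 bases for Slc2a3, 3506 for Slc2a1 and 3211 for Slc2a6. Slc2a6 held the largest mean share in normoxia, 40.5% in WT and 41.5% in KO, ahead of Slc2a3 at 27.8% and 25.9%. This order depends on the division by length. In CPM, Slc2a3 was above Slc2a6 in normoxia (means 63.2 against 41.2 in WT and 51.4 against 36.1 in KO). In WT hypoxia Slc2a1 took 49.3 to 59.6% and Slc2a3 26.6 to 30.8%, whereas in KO hypoxia Slc2a1 took 37.8 to 40.7% and Slc2a3 33.9 to 39.8%, ranges of the KO libraries that overlap between the genes. Here too the order depends on length, since in CPM the mean of Slc2a3 was the higher in hypoxia (146 against 137 in WT and 115 against 58.9 in KO). The share of Slc2a3 moved by 0.99 percentage points in WT (exact permutation test, two-sided, p = 0.8) and by 11.3 in KO (p = 0.1, the smallest that 3 against 3 libraries allow). No comparison of shares can therefore reach a p of 0.05, and the values of the 8 comparisons had adjusted p of 0.16 or more.

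Slc16a1 and Slc16a3 summed to 34.4 ± 2.02 CPM per kilobase in WT normoxia, 86.0 ± 15.6 in WT hypoxia, 35.8 ± 2.51 in KO normoxia and 68.5 ± 8.88 in KO hypoxia. Nearly all of it was Slc16a1 in normoxia, where Slc16a3 held 6.39 to 10.1% in the WT libraries and 2.11 to 6.82% in the KO libraries. In hypoxia Slc16a3 held 59.7 to 69.9% in WT and 22.2 to 36.3% in KO. The larger transcript of the pair was thus Slc16a3 in every WT hypoxia library and Slc16a1 in every KO hypoxia library. Each of these 3 differences, 58.0 percentage points with hypoxia in WT, 23.1 in KO and -38.2 for KO against WT in hypoxia, was larger than its spread between libraries (pooled SD 4.09, 5.62 and 6.61) and had the smallest p that the exact permutation test allows (p = 0.1).

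**Figure D4:**
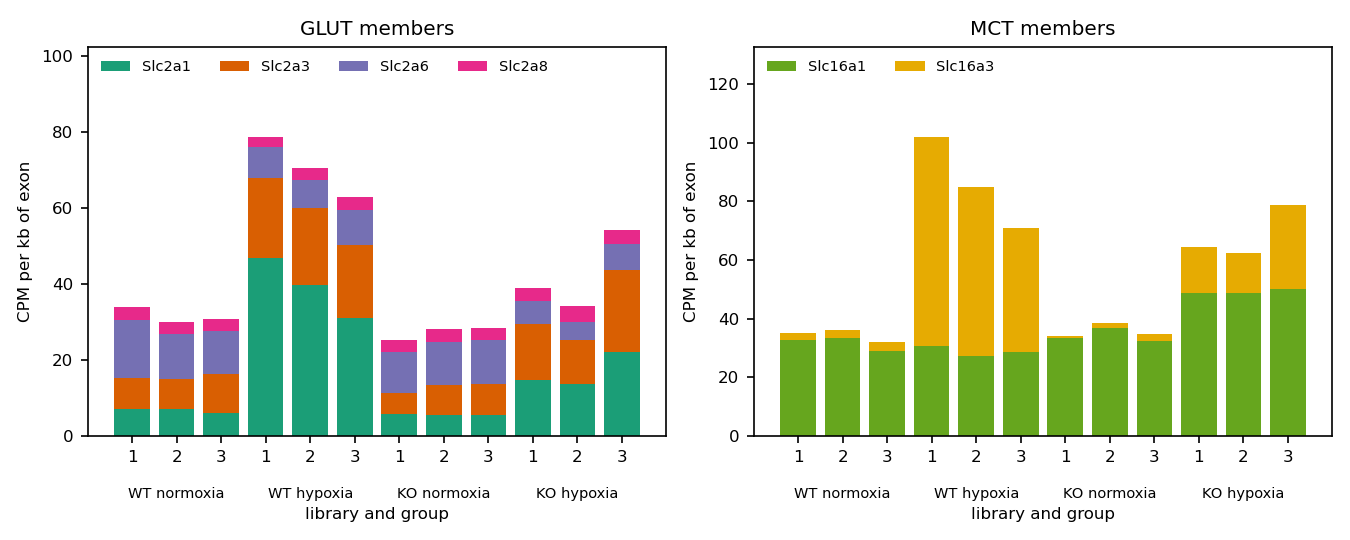
Stacked CPM per kilobase of exon of the 4 glucose transporters (left) and the 2 lactate transporters (right) in each library, in the order of the groups. Slc16a3 is the larger part of the right-hand bars in the 3 WT hypoxia libraries (59.7 to 69.9%) and the smaller part in the 3 KO hypoxia libraries (22.2 to 36.3%).

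Among the other members of the families few transcripts were present. Of 8 further SLC2 genes 1 passed the filter on low counts, Slc2a9, a urate transporter, and the other 7 had at most 21 reads in any library. Slc2a9 fell in KO (-0.42 ± 0.12, adjusted p = 0.0209), a call lost without any 1 of KO normoxia libraries 1, 2 and 3 or KO hypoxia library 2 (-0.42 to -0.29), and had -0.18 ± 0.12 in WT. None of the 4 sodium-coupled glucose and monocarboxylate transporters listed, with at most 7 reads, was tested. Of 12 further SLC16 genes 8 were tested, and 2 rose and 1 fell in WT while 3 rose and 1 fell in KO, with list medians of 0.34 and 0.34 beside 0.01 and 0.04 for all genes. Among all tested genes 11.4% were called higher and 16.3% lower in WT, and 14.5% and 15.7% in KO. Slc16a7, which encodes the high-affinity pyruvate and lactate transporter MCT2, fell in both genotypes (-0.99 ± 0.23 in WT and -1.14 ± 0.24 in KO), from 3.46 CPM in either normoxia group. Slc16a6 passed the test only as a lower level in KO under hypoxia (16.9 ± 0.548 CPM against 26.6 ± 0.546 CPM in WT, -0.66 ± 0.11, adjusted p = 0.00386). That call was lost with the monocyte and neutrophil levels as covariates (-0.56, adjusted p = 0.0791) and in the fit limited to libraries that have Xist and no Y-linked reads (-0.67). Slc16a10, an aromatic amino acid transporter, rose by 0.38 ± 0.13 in WT and 0.52 ± 0.13 in KO, and the WT call was lost without any 1 of WT normoxia libraries 1, 2 and 3 or WT hypoxia libraries 1 and 3 (0.28 to 0.44). Slc16a8, MCT3 of the retinal pigment epithelium, rose from 3 to 7 reads per normoxia library to 10 to 26 per hypoxia library, and its calls were lost without any 1 of 3 libraries in each genotype (WT normoxia 2 and 3 and WT hypoxia 3, 1.51 to 1.88, and KO normoxia 2 and 3 and KO hypoxia 1, at most 1.75). The remaining KO call was Slc16a4, named after its value was seen (0.54 ± 0.18, adjusted p = 0.0327) and not followed in the other settings.

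Of the 4 genes listed as other chaperones or suppressors of glucose uptake, 3 rose in WT and 2 in KO, where 11.4% and 14.5% of all tested genes were called higher. The list medians were 0.89 and 0.70, beside 0.01 and 0.04 for all genes. Emb, embigin, the chaperone of MCT2 and kin of basigin, rose by 0.85 ± 0.25 in WT and by 1.05 ± 0.25 in KO, and the WT call was lost without any 1 of WT normoxia libraries 1 and 2 or WT hypoxia libraries 2 and 3 (0.66 to 0.91). Both Emb calls were lost with no filter on low counts (0.86, adjusted p = 0.0945 in WT and 1.01, adjusted p = 0.0502 in KO). In the fit limited to libraries that have Xist and no Y-linked reads, Emb was 0.70 in WT and 1.03 in KO. Arrdc4, an arrestin-like protein that lowers glucose uptake, rose by 1.39 ± 0.16 and 1.46 ± 0.16. Txnip, which takes GLUT1 off the cell surface, rose in WT from 169 ± 43.3 to 323 ± 92.0 CPM (0.93 ± 0.22, adjusted p = 0.00823), whereas the KO value of 0.35 ± 0.22 was not called. Under hypoxia Txnip was lower in KO (-0.90 ± 0.22, adjusted p = 0.0268), a call lost without any 1 of WT hypoxia libraries 1 and 2 and KO hypoxia libraries 1 and 2 (-0.85 to -0.74). It was lost too with no filter on low counts (-0.92), with the compared groups alone (-0.88) and with the myeloid covariates (-0.81), and Txnip was -0.26 (adjusted p = 0.361) in the fit limited to libraries that have Xist and no Y-linked reads and -0.40 (adjusted p = 0.0843) with the Y-linked covariate.

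Of 9 listed enzymes and carriers on either side of the transporters, 8 were tested, 4 rose and 1 fell in WT, and 3 rose and 1 fell in KO, with list medians of 0.37 and 0.44. The shares of all tested genes were 11.4% higher and 16.3% lower in WT, and 14.5% and 15.7% in KO, with medians of 0.01 and 0.04. Ldha, the lactate dehydrogenase subunit that makes lactate from pyruvate, went from 181 ± 29.5 to 1509.5 ± 249 CPM in WT (3.06 ± 0.17) and from 145 ± 5.39 to 361 ± 78.7 CPM in KO (1.32 ± 0.16). Its difference of responses was called (-1.74 ± 0.23, adjusted p = 0.00597), a call lost in the fit limited to libraries that have Xist and no Y-linked reads (-1.61). Hk2, a hexokinase that traps glucose as its phosphate, rose by 1.62 ± 0.24 in WT and 1.18 ± 0.24 in KO. Hk1, the housekeeping hexokinase, rose in WT only by the test (0.56 ± 0.10, against 0.06 ± 0.10 in KO) and was lower in KO hypoxia than in WT hypoxia (-0.59 ± 0.10), while its difference of responses was not called (-0.50 ± 0.15, adjusted p = 0.212). In the fit limited to libraries with Xist and no Y-linked reads, Hk1 was called neither in WT (0.49) nor for KO against WT under hypoxia (-0.50). The Hk2 calls were lost there too (1.21 in WT and 1.24 in KO). The gene that fell in both was Mpc2, a subunit of the mitochondrial pyruvate carrier, named after its values were seen (-0.43 ± 0.15 and -0.46 ± 0.15). Its WT call was close to the threshold (adjusted p = 0.0477), and its calls were not followed in the other settings.

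Of 6 listed genes for protons and carbonate, which handle the acid that leaves with lactate, 5 were tested. In WT 1 rose and 2 fell, and in KO 1 rose and 1 fell, with list medians of -0.11 and 0.03. Among all tested genes 11.4% rose and 16.3% fell in WT, and 14.5% and 15.7% in KO. Slc4a7, a sodium bicarbonate cotransporter, rose by 0.55 ± 0.11 in WT and 0.55 ± 0.11 in KO. Car9, carbonic anhydrase 9, had 79 to 96 reads in WT normoxia and 34 to 60 in WT hypoxia (-0.74 ± 0.24, adjusted p = 0.0333), a call lost without any 1 of WT normoxia libraries 1, 2 and 3 and WT hypoxia libraries 2 and 3 (-0.78 to -0.56).

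**Figure D5:**
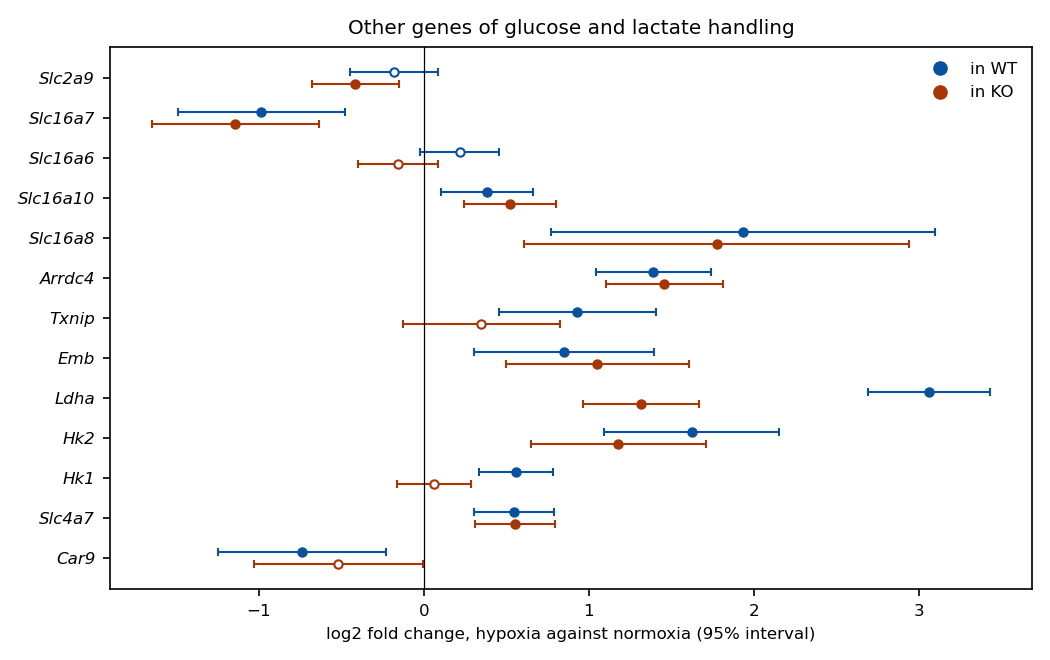
Log2 fold changes, hypoxia against normoxia, with 95% intervals, in WT and KO for other genes of glucose and lactate handling. Filled points passed an adjusted p of 0.05 and open points did not. Ldha has the largest change in WT, 3.06, and 1.32 in KO.

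The genes whose levels were most like each transporter over the 12 libraries, by Pearson r of log2 CPM among 11354 genes, differed between the transporters. These correlations are descriptions over 12 libraries in 4 groups that share treatment and cell makeup. Slc2a1 was most like Egln1, a prolyl hydroxylase of the oxygen-sensing pathway (r = 0.998), then Pgk1, a glycolytic enzyme, and Bnip3, a mitophagy receptor (both r = 0.995). Slc16a3 was most like Arrb1, a β-arrestin (r = 0.990), Ak4, an adenylate kinase of mitochondria (r = 0.987), and Ier3 (r = 0.985), and Slc2a3 most like Emilin2, Ppp1r3b and also Arrb1 (r = 0.980 to 0.983). Bsg was most like Txnip (r = 0.982), Ppme1 and Fam162a. Slc2a6 was most like Vwa5a (r = 0.976), Cd300c, a receptor of myeloid cells, and Mpeg1, a perforin-like protein of macrophages (both r = 0.970). Slc16a1 was most like Tagap1 (r = 0.959), Dbf4, a regulator of DNA replication, and Pabpc4, and Slc2a8 most like Psat1, an enzyme of serine synthesis (r = 0.957), Mpp6 and Reep2.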

How the data were processed

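Reads of 12 RNA-seq libraries of mouse bone marrow B cells were taken as the authors deposited them, as raw read counts of 46983 Ensembl genes in 12 columns. CASAVA, Bowtie 0.12.2 and mm10 appear in the submitters' processing notes. What counted the reads, with which annotation and strand setting, is not given in the sources used here; without strand, overlapping and antisense genes cannot be told apart. Positions came from GENCODE for GRCm38 and promoter windows from RefSeq.

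Groups follow the sample labels. The counts were fitted with edgeR 4.0.16 (R 4.3.3) by robust quasi-likelihood on the 4 group means, after TMM scaling and edgeR's own filter, which kept 17506 genes and dropped 29477 with 0.0738% of reads. F tests were adjusted by Benjamini-Hochberg. The interaction subtracts the WT response from the KO response. The script was tested on simulated data. Shares were compared with two-sided exact permutation tests. Log2 CPM had a prior count of 2.

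The members and lists were chosen with earlier results of these data known. Besides the 7 members, Hif1a and Cd79a, each list contributed up to 4 called genes of smallest adjusted p, and each member the 3 genes most like it with a mean CPM of at least 1, predicted models and pseudogenes left out. Some genes that this rule takes are not reported here. The other settings tried were DESeq2 1.42.0, RLE size factors, a scaling that ignored immunoglobulin and mitochondrial genes, dropping the filter, a filter of CPM 1 in at least 3 libraries, fits of the compared groups alone, a replicate block, shares not divided by gene length, and omission of each library. After seeing the data, 3 more were chosen: a fit limited to libraries that have Xist and no Y-linked reads, a Y-linked covariate, and both myeloid marker levels (monocyte and neutrophil) as covariates. The Y-linked covariate was yes or no, for more than 100 CPM of Y-linked reads. Libraries of 1 group differed beyond sampling noise in every pair. Deviations from the group means of same-numbered WT normoxia and hypoxia libraries correlated at 0.196, 0.360 and 0.434, so the numbers pair the WT libraries. In KO the values were 0.182, -0.0391 and 0.120, beside highest values with another number of 0.0622, 0.0533 and -0.0163. Numbers 1 and 3 thus correlated most with their own number and number 2 did not. The KO libraries numbered 1 also differed in Y-linked reads, with 0 in normoxia and 1507 in hypoxia. Whether the numbers pair the KO libraries is therefore not clear.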

Additional observations from a re-analysis of the deposited data

Results flagged for a closer look

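The hypoxia response of Slc16a1 differed between the genotypes in a test of the difference itself, the interaction term of the edgeR fit, which was 0.66 ± 0.11 on the log2 scale with an adjusted p of 0.0192. That call was lost on leaving out any 1 of 4 libraries (0.62 to 0.69, adjusted p = 0.0558 to 0.0793). The value was 0.55 in the fit limited to libraries that have Xist and no Y-linked reads. Groups of 3 libraries were too small to test for a library far from the others.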

How the results depend on the processing

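The called hypoxia responses of the members in WT and in KO kept their direction and call in every alternative except the fit limited to libraries that have Xist and no Y-linked reads, where Slc2a3, Slc2a6 and Slc16a3 in WT and Slc2a3 in KO were not called. That fit, with 1 WT library per condition, called 1070 genes for hypoxia in WT, with 2 members higher and 0 lower, 30 genes for KO against WT under hypoxia, with 0 members lower, and 1 gene for the interaction, with 0 members higher. It also reversed Slc2a8 in WT hypoxia (0.081), Slc2a8 (0.045) and Bsg (0.041) for KO against WT under normoxia, and the interactions of Slc2a3 (0.31) and Slc16a3 (0.0092), none of them called in either fit. With the Y-linked covariate, KO against WT under hypoxia had 648 genes with 1 member lower, the interaction 147 genes, and Bsg under normoxia was 0.080. With the myeloid marker levels as covariates, hypoxia in KO had 3478 genes, KO against WT under hypoxia 249 genes with 1 member lower, KO against WT under normoxia 0 genes and the interaction 47 genes; the uncalled KO against WT values of Slc2a3 reversed under hypoxia (0.022) and under normoxia (0.21), as did Slc2a6 (0.073) and Slc16a3 (0.083) under normoxia. Of the settings fixed first, and apart from the block and the left-out libraries, some moved the counts for KO against WT under normoxia (40 genes with no filter, 0 with the compared groups alone, 103 with DESeq2) and for the interaction (194 with no filter, 327 with DESeq2, where 1 member was lower). Slc2a8 for KO against WT under normoxia, -0.0080, was 0.012 with RLE size factors, 0.014 with the compared groups alone, 0.012 with DESeq2, 0.025 with no filter and 0.015 with the CPM filter. The cause of these changes was not tested.

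With the replicate number as a block within each genotype, the interaction had 188 genes and 1 member lower, Slc2a1, and Bsg was called in KO; the block changed no other call of a member in the first 5 comparisons. The block takes same-numbered KO libraries as pairs, which is not clear from their correlations and Y-linked reads. For KO against WT the samples share only a number.

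Leaving out each library in turn gave 672 to 1796 genes and 1 to 4 members lower for KO against WT under hypoxia, 3 to 294 genes for KO against WT under normoxia, and 18 to 224 genes, 0 to 1 members higher and 0 to 1 lower for the interaction. The interaction of Slc2a3 ran from -0.29 to 0.18 and Slc2a8 for KO against WT under normoxia from -0.055 to 0.017. The share of Slc2a3 moved by -0.71 to 3.64 percentage points with hypoxia in WT and between -3.54 and 0.81 for KO against WT under normoxia.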
